A study of Homo sapiens with 6 samples.

Results

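The FOS and JUN family with the small MAF gene MAFF was taken as the 8 genes FOS, FOSB, FOSL1, FOSL2, JUN, JUNB, JUND and MAFF, matched by symbol in a table of 61806 genes. Their mRNA was measured by poly(A) RNA sequencing in A549, a human lung adenocarcinoma cell line whose genotype label is WT. The 3 control libraries came from cells given DMSO, the solvent, and the 3 treated libraries from cells given Japoflavone B, which the study's title calls a PARP1 inhibitor. Treatment lasted 24 h and followed 24 h of seeding; the dose is labelled 40 without a unit. The comparison asks how mRNA levels differed after the compound, with caspase-dependent cell death as the study's stated interest. All cells were of 1 line, so each value describes A549 alone, at 1 time point.

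FOS and JUN proteins carry a basic region and a leucine zipper and pair through the zipper to form AP-1, a transcription factor. FOS proteins need a JUN partner to bind DNA, whereas JUN proteins can also pair among themselves. In lung epithelial cells and their tumours AP-1 is known for its response to growth factors, stress and DNA damage through the MAP kinases, and for control of proliferation, migration and matrix breakdown. The genes FOS, FOSB, JUN and JUNB are known as immediate-early genes, transcribed within minutes of a stimulus from promoters that factors already in the cell can bind, and several of their mRNAs are short-lived. MAFF encodes a small MAF protein, a related zipper protein that lacks an activation domain and pairs with cap'n'collar factors such as NRF2 or BACH1.

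The promoter stretches of 6 members are shown because they hold the letters by which factors such as CREB, ATF and AP-1 are known to recognise these genes. Sequences are from RefSeq on GRCh38.p14, 5′ to 3′ along the gene's strand. A promoter here spans 250 bases before to 50 after the annotated start; 7 members had one, all but FOSL1. For FOSL2 and MAFF the RefSeq start lies inside the gene span of the deposited table, which begins further upstream. Capitals mark TGACG, the core of the cyclic AMP response element (CRE), or its complement CGTCA; the AP-1 site TGANTCA; the TRE-like TGACATCA; the MEF2-type site of JUN, which ends the capitals of its line; and TATAA or its complement TTATA.
FOS, chr14:75278753-75278813, plus strand: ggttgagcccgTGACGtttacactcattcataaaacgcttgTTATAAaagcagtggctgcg
FOSB, chr19:45467921-45467981, plus strand: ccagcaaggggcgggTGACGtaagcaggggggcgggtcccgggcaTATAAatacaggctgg
FOSL2, chr2:28392783-28392872, plus strand: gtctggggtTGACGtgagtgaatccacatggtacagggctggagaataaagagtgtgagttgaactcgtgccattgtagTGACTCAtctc
JUN, chr1:58784087-58784177, minus strand: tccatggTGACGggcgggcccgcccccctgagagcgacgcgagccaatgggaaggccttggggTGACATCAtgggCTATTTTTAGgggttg
JUND, chr19:18281642-18281832, minus strand: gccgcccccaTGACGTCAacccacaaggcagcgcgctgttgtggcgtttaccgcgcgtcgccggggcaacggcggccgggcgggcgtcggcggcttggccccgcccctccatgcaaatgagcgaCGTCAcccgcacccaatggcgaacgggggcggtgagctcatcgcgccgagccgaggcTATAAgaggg
MAFF, chr22:38201919-38202008, plus strand: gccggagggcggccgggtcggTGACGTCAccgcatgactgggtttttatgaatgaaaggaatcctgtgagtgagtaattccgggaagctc

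The CRE core, searched on both strands, lay in 7 of the 8 promoters that the table lists for these 7 genes, against 24.6% of 35116 promoters of the same length. MAFF has 2 listed promoters, and the second lacked the core. Counted from the annotated start, the core began at base -64 in FOS, -60 in FOSB and -66 in FOSL2, and at -123 in JUN and -137 in JUNB. Further cores lay at -201 in FOSL2 and at -86 in JUND, both on the opposite strand. The full element TGACGTCA, held by 1.85% of promoters, was present in JUND at -200 and in the first MAFF promoter at -54. Each full element contains the core on both strands, so that these matches overlap.

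TATAA was found in FOS, FOSB, JUNB and JUND, starting between -33 and -29 on the gene's strand, against 20.4% of all promoters. JUN alone among the members held TGACATCA, at -67 (2.61% of promoters), and the MEF2-type site, at -55 (0.14%). These are the JUN promoter elements that JUN-ATF dimers and MEF2 factors are known to bind. FOSL2 had the one TGANTCA match of the set, 5 bases after its start, against 7.71% of promoters. Within this window of 250 bases before to 50 after the start, no member promoter held the CArG box, the binding site of serum response factor (1.29% of promoters), or the EGR site GCGGGGGCG (5.07%); sequence further upstream was not searched. The CCAAT box occurred in JUN, JUNB, JUND and MAFF (34.6% of promoters) and the E-box CACGTG in MAFF (7.26%). The map of matches shows the FOS, FOSB and FOSL2 cores at nearly the same distance from the start.

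**Figure D1:**
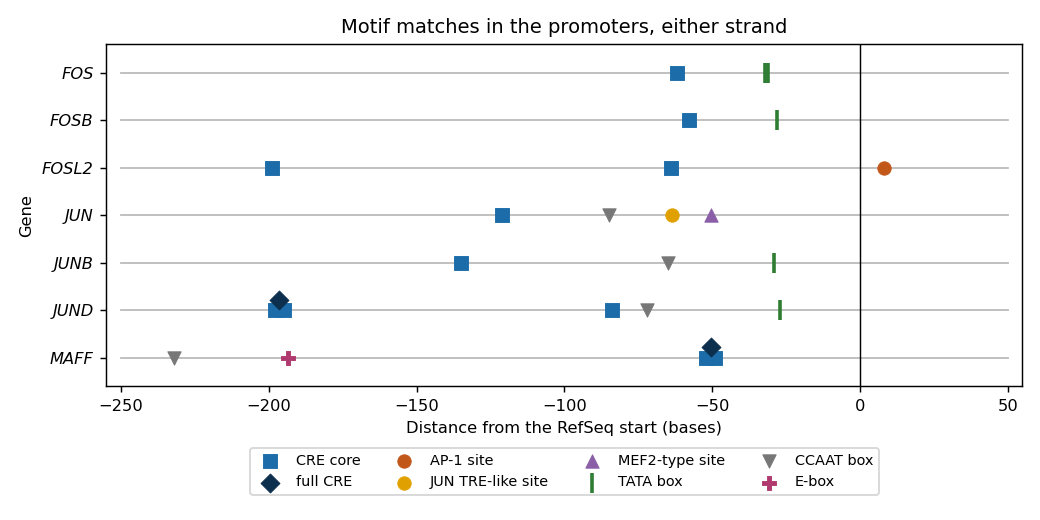
Motif matches on either strand in the promoters of the 7 members found in the RefSeq table. The x axis is the distance from the annotated start in bases, each row is a gene, and symbols mark motif centres; for MAFF the first of its 2 listed promoters is drawn. The CRE core is the motif present in every row, and JUND and MAFF also hold the full CRE.

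The 3′ ends of these mRNAs are shown because the pentamer ATTTA, in capitals, is the core of AU-rich elements, which are known to shorten the life of FOS mRNA. Positions count from the first base of the 3′ UTR in GENCODE 29, and T stands for U.
FOS, UTR bases 633 to 662: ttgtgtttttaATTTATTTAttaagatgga
MAFF, UTR bases 1522 to 1551: cggctcctagaATTTATTTAtttcctgact
JUND, UTR bases 414 to 443: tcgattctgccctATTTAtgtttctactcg
The FOS UTR held 5 pentamers in 806 bases, 6.20 per kb, a density reached by 5.18% of 12328 UTRs of tested genes. JUNB followed with 4.0 per kb, while JUND had 1 pentamer in 681 bases, or 1.47 per kb, and the median over tested genes was 1.72. The longer element TTATTTATT occurred in FOS and FOSL2, each with 1 copy, and in MAFF with 2 copies, against 8.91% of UTRs. All 8 members held at least 1 pentamer, as did 72.6% of UTRs. JUN, JUNB and JUND have a single exon in the transcript used, as do 2.15% of the 12328 tested genes compared here. These are the genes with a 3′ UTR of at least 100 bases.

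After Japoflavone B, FOS, FOSL1, FOSL2, JUN, JUNB and MAFF were higher and JUND was lower. FOSB was also far higher, but it passed the filter on low counts through the treated libraries alone and so had to differ; it is left out of the counts here. Of all 16082 genes tested, 34.7% were called higher and 35.4% called lower by edgeR's quasi-likelihood test at an adjusted p under 0.05, so that a call in itself is common in these data. Of the 7 members other than FOSB, 6 were called higher, 5 of them by at least 2-fold, which 9.67% of tested genes reached, and 1 was called lower. Their median log2 fold change was 1.44, against -0.004 over all genes tested. Whether the libraries came from separate cultures is not in the labels; p-values therefore reflect only how far these libraries spread, which may be technical. In bulk RNA, fewer cells with an mRNA and less of it in each cell cannot be told apart. Levels are given in FPKM, counts scaled by exonic length and library total, as means ± SD over n = 3 libraries. Fold changes use the counts with trimmed-mean scaling, and their errors are SE.

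**Figure D2:**
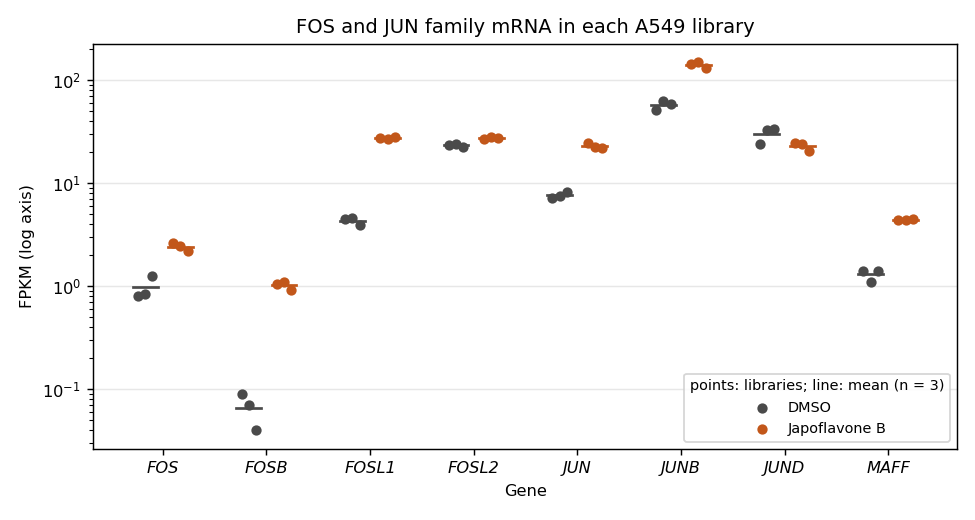
FPKM of the 8 genes in each library on a log axis; points are libraries, lines the group means (n = 3). For every gene but JUND the treated points lie above all DMSO points, with the widest gap in FOSB (0.04 to 0.09 against 0.92 to 1.10 FPKM).

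Among the FOS genes, FOSB had the largest fold change of the set. FOSB (ENSG00000125740, chr19:45467995-45475179, GRCh38) encodes a FOS protein with an activation domain, best known from brain, where a truncated form is long-lived. Its levels were 0.09, 0.07 and 0.04 FPKM after DMSO and 1.06, 1.10 and 0.92 after Japoflavone B. Every treated library was above every DMSO library, but both groups were low, at 10, 9 and 3 counts and at 117, 96 and 94 counts. The fitted change was 15.9-fold (log2 3.99 ± 0.30), given as a description, since 0 DMSO libraries and all 3 treated ones reached the filter's level. Taken directly, the summed counts of 22 (DMSO) and 307 (treated) stood in a ratio of 14.96 after division by library totals, with an exact 95% binomial interval of 9.70 to 24.2 that covers counting error only. A higher log2 fold change was seen in 0.51% of tested genes.

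FOSL1 rose from the middle of the expressed range to near its top. FOSL1 (ENSG00000175592, chr11:65892049-65900573) encodes FRA1, a FOS protein without the activation domain of FOS, whose stability is known to depend on ERK signalling and which is often abundant in epithelial tumours. DMSO libraries had 4.53, 4.56 and 3.91 FPKM and treated libraries 27.56, 26.84 and 27.77 FPKM. The groups lay far apart and each was tight, and the change was 6.74-fold (log2 2.75 ± 0.09, edgeR adjusted p = 1.56e-20). FOSL1 exceeded 52.9% of tested genes in mean FPKM after DMSO and 90.9% after Japoflavone B.

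FOS itself stayed at a low level. FOS (ENSG00000170345, chr14:75278826-75282230), the founding member, encodes c-FOS, a strong activator with JUN. It had 0.80, 0.85 and 1.27 FPKM after DMSO, from 53, 59 and 62 counts, and 2.60, 2.43 and 2.21 FPKM after Japoflavone B, from 164, 122 and 130 counts. The groups did not overlap, although DMSO replicate 3 stood above the other DMSO libraries. FOS was 2.71-fold higher (log2 1.44 ± 0.19, edgeR adjusted p = 9.94e-08), and 5.06% of tested genes had a higher log2 fold change.

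FOSL2 changed least among the genes that rose. FOSL2 (ENSG00000075426, chr2:28392448-28417317) encodes FRA2, which like FRA1 lacks the activation domain of FOS. Its levels were 23.55, 24.09 and 22.40 FPKM after DMSO and 26.75, 27.71 and 27.60 after Japoflavone B. The groups were separate by a small margin, with a change of 1.26-fold (log2 0.33 ± 0.05, edgeR adjusted p = 2.18e-06). As 32.4% of tested genes had a higher log2 fold change, the FOSL2 value lay within the broad middle of the data.

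The JUN genes moved in both directions. JUN (ENSG00000177606, chr1:58776845-58784048) encodes c-JUN, the target of the JNK kinases. It measured 7.15, 7.45 and 8.24 FPKM after DMSO and 24.46, 22.27 and 21.79 FPKM after Japoflavone B. All treated libraries exceeded all DMSO libraries, by 3.23-fold (log2 1.69 ± 0.07, edgeR adjusted p = 8.05e-18).

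JUNB was the most abundant member in both groups. JUNB (ENSG00000171223, chr19:12791486-12793315) encodes a JUN protein that activates many AP-1 sites more weakly than c-JUN. DMSO libraries had 51.51, 61.95 and 59.04 FPKM and treated libraries 141.72, 148.13 and 130.38 FPKM. The groups did not overlap, and JUNB was 2.62-fold higher (log2 1.39 ± 0.06, edgeR adjusted p = 3.80e-17). In mean FPKM it exceeded 96.4% of tested genes after DMSO and 98.7% after Japoflavone B. JUNB lies within the span of HOOK2, a dynein adaptor gene on the opposite strand, and 259 of its 1820 exonic bases in GENCODE 29 are shared. HOOK2 went from 1.46 ± 0.246 to 2.58 ± 0.0866 FPKM (log2 0.91, edgeR adjusted p = 2.58e-07). The strand setting of the counting is not given in the sources used here, so reads from the shared bases cannot be told apart.

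JUND was the one member called lower. JUND (ENSG00000130522, chr19:18279694-18281622) encodes the JUN protein known for steady expression in resting cells and for restraining proliferation. Its levels were 23.85, 32.92 and 33.38 FPKM after DMSO and 24.74, 23.79 and 20.44 FPKM after Japoflavone B. The groups overlapped, because DMSO replicate 1 lay below treated replicate 1. The fit gave a 1.21-fold lower level (log2 -0.28 ± 0.09, edgeR adjusted p = 0.0103). A two-sided exact permutation test on the 6 log2 CPM values, taken from counts with trimmed-mean scaling, gave p = 0.3. For each of the other 7 members, FOSB given as a description, the exact permutation test gave p = 0.1, the smallest that 3 against 3 allows. The JUND call was lost with DESeq2 (log2 -0.28, adjusted p = 0.157) and without DMSO replicate 2 (log2 -0.21, 0.0947), DMSO replicate 3 (-0.19, 0.058) or Japoflavone B replicate 3 (-0.19, 0.106). Without DMSO replicate 1 the log2 change was -0.42.

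MAFF rose together with its relative MAFK. MAFF (ENSG00000185022, chr22:38200767-38216507) had 1.41, 1.09 and 1.41 FPKM after DMSO and 4.42, 4.34 and 4.51 FPKM after Japoflavone B. The treated libraries were all higher and nearly equal, and the change was 3.66-fold (log2 1.87 ± 0.11, edgeR adjusted p = 2.50e-14). A higher log2 fold change was seen in 2.99% of tested genes for MAFF and in 3.63% for JUN. Groups did not overlap in FPKM with the treated libraries higher in 6 of the 7 members other than FOSB, against 30.9% of tested genes, and with the treated libraries lower in 0, against 40.7%.

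**Figure D3:**
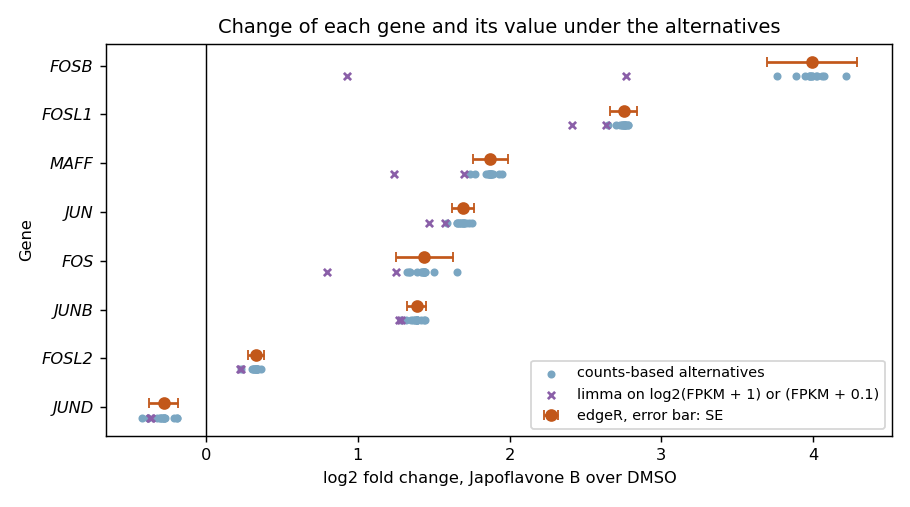
Log2 fold change of each gene (orange, error bar SE, n = 3 per group) with its values under the alternative analyses below it. Blue points are analyses of the counts and crosses are limma on log2 of FPKM plus a pseudocount, which gives smaller changes for the low genes FOS, FOSB and MAFF; JUND is the one gene left of 0.

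The rises held under the alternatives tried. Across 16 alternative analyses the log2 change ran from 2.41 to 2.78 for FOSL1, from 1.47 to 1.76 for JUN and from 1.27 to 1.44 for JUNB, all past the threshold. For FOSL2 it ran from 0.22 to 0.36, with a highest adjusted p of 0.00141. FOS ran from 0.80 to 1.66 and MAFF from 1.24 to 1.95, while FOSB ran from 0.93 to 4.22 over the 15 alternatives in which it was tested. For these low genes the smallest value came from limma on log2(FPKM + 1), and the largest from leaving out DMSO replicate 3 for FOS and DMSO replicate 1 for MAFF and FOSB. Scaling by library totals in place of trimmed means shifted the median gene by -0.10 log2 and turned no member's direction.

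The order of the levels differed between groups. After DMSO it was JUNB, JUND, FOSL2, JUN, FOSL1, MAFF, FOS and FOSB in mean FPKM, and the ranges of JUND and FOSL2 and of MAFF and FOS overlapped. After Japoflavone B it was JUNB, FOSL1, FOSL2, JUND, JUN, MAFF, FOS and FOSB, with overlapping ranges for FOSL1 and FOSL2 and for JUND and JUN. FOSL1 stood at 18.6% of the FOSL2 level after DMSO and at 100.1% of it after Japoflavone B. JUNB was 1.91 times the next gene, JUND, after DMSO, and 5.11 times the next, FOSL1, after Japoflavone B.

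Ratios between members within a library do not depend on the scaling of libraries, and 8 pairs were compared. JUN relative to JUND went from 0.256 to 0.996, and the log2 ratio was higher by 1.96. For JUNB to JUND the ratio went from 1.93 to 6.11 (log2 difference 1.66), and JUN to JUNB moved little, from 0.133 to 0.163 (0.30). FOSL1 to FOSL2 went from 0.185 to 1.00 (2.44). FOSB to FOS went from 0.0663 to 0.425 (2.68), on 3 to 10 FOSB counts per DMSO library. FOSB passed the count filter through the treated libraries alone and so had to differ, so its ratio is given as a description. The ratio of FOS to FOSL1 was lower after treatment, at 0.0879 against 0.220 (-1.33), since FOSL1 changed more. In each of these pairs the 3 treated libraries did not overlap the 3 DMSO libraries.

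MAFF to MAFG, another small MAF gene, went from 0.0575 to 0.171 (log2 difference 1.57), also without overlap. MAFF to MAFK was 0.0445 and 0.0471, a log2 difference of 0.08 with overlapping groups (exact two-sided permutation p = 0.9). For the other 7 pairs, FOSB to FOS given as a description, the exact two-sided permutation p was 0.1, the smallest possible. After Benjamini-Hochberg adjustment over the 8 pairs it was 0.114, so that no ratio passed a threshold of 0.05.

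**Figure D4:**
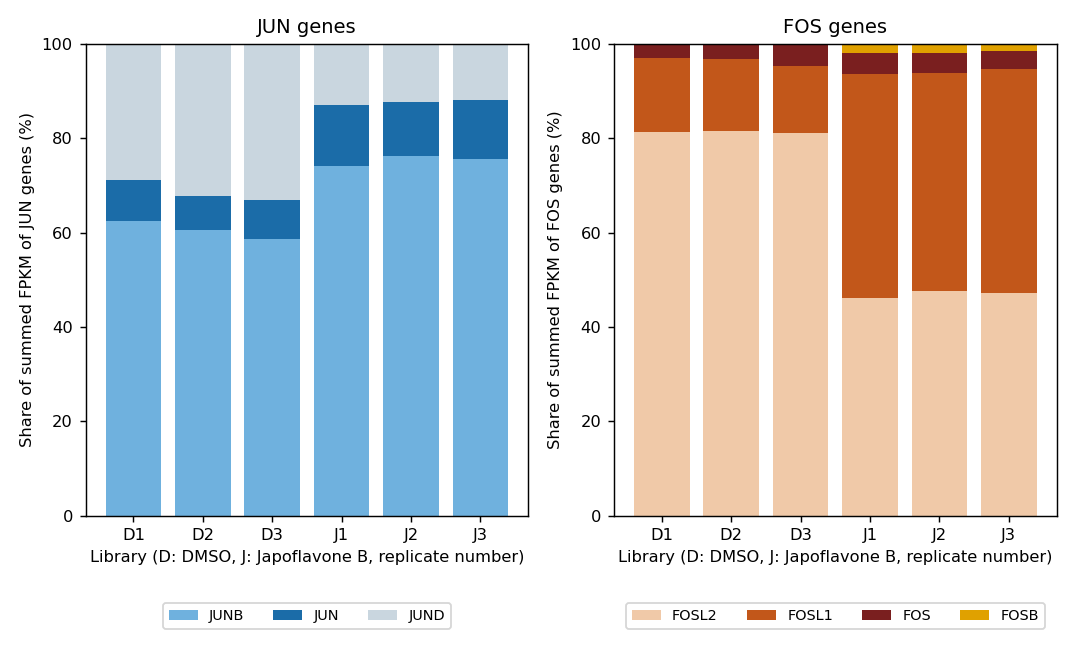
Share of each gene in the summed FPKM of the 3 JUN genes (left) and the 4 FOS genes (right) in each library, in percent. JUND took a mean share of 31.4% in the DMSO bars and 12.4% in the treated ones, and FOSL1 went from 15.1% to 47.1%.

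Summed over the 7 FOS and JUN genes, mRNA went from 123.9 ± 10.9 to 244.1 ± 11.4 FPKM. The JUN genes held 76.7% ± 2.36 of this sum in DMSO libraries and 76.1% ± 1.25 in treated ones (SD, n = 3). Within the JUN genes, JUNB went from 60.5% ± 1.89 to 75.4% ± 1.04, JUN from 8.04% ± 0.703 to 12.3% ± 0.728, and JUND from 31.4% ± 2.23 to 12.4% ± 0.565. Within the FOS genes, FOSL2 went from 81.3% ± 0.184 to 47.0% ± 0.796 and FOSL1 from 15.1% ± 0.800 to 47.1% ± 0.748. FOS had 3.41% ± 1.03 and 4.15% ± 0.355 of the FOS genes' sum, a difference within its spread, and FOSB 0.231% ± 0.0831 and 1.77% ± 0.170. Taken from counts, which are not scaled by length, FOSL1 had 4.57% and 19.8% and FOSL2 93.5% and 75.1% of the FOS genes' sum, and the JUN genes had 51.5% and 59.5% of the 7 genes' sum. On either scale FRA1 and FRA2 mRNA together made up most of the FOS genes' sum in both groups.

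The other zipper genes that can pair with JUN or FOS proteins were divided. Of 9 such genes, 7 were tested, of which 4 rose and 3 fell (median log2 1.00). Over all tested genes 34.7% were called higher and 35.4% lower. These shares stand beside this and each following list count. ATF3, a stress-induced repressor and activator, went from 0.977 ± 0.102 to 13.2 ± 0.461 FPKM, 14.3-fold higher. ATF4, the effector of the integrated stress response, went from 73.7 ± 3.48 to 214.3 ± 4.02 FPKM (3.12-fold) and ATF7 from 4.96 ± 0.0635 to 9.25 ± 0.200 FPKM (2.00-fold). CREB5 also rose, with summed counts of 44 (DMSO) and 114 (treated). BATF3 was 1.59-fold lower, and JDP2 and ATF2 fell by 0.25 and 0.18 on the log2 scale. Of these calls, that of ATF2 was lost in 2 alternatives and that of JDP2 in 3. BATF and BATF2 were too low to test.

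Of 12 MAF and cap'n'collar genes, the possible partners or relatives of MAFF, 9 were tested: 6 rose, 2 fell and 1 did not pass (median log2 0.30). MAFK rose from 29.2 ± 3.08 to 94.0 ± 1.95 FPKM (3.46-fold), and MAFG was 1.24-fold higher. BACH1, a repressor that pairs with small MAF proteins, rose from 4.25 ± 0.00577 to 9.63 ± 0.324 FPKM (2.43-fold). NRF2's gene NFE2L2 was slightly higher, at 9.68 ± 0.344 and 10.1 ± 0.112 FPKM (log2 0.16, edgeR adjusted p = 0.00748), a call lost with library totals (log2 0.06, adjusted p = 0.300) and with both limma fits. With these 3 alternatives 4 genes of the list were called higher, MAF being the other that no longer passed. The 2 that fell were NFE2L3 (log2 -0.45) and BACH2, with summed counts of 91 (DMSO) and 6 (treated). NFE2L1 had log2 0.11 and did not pass (adjusted p = 0.0508). MAFA passed the count filter through the treated libraries alone and BACH2 through the DMSO libraries alone, so both had to differ. The 6 that rose include MAFA and the 2 that fell include BACH2, so neither adds to what these counts show.

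MAP kinase genes, whose proteins activate JUN and FOS, moved both ways. Of 22 tested, 10 rose, 7 fell and 5 did not pass (median log2 0.16), where 34.7% of all tested genes were called higher and 35.4% lower. MAP2K3, an activator of p38, was 2.16-fold higher and MAP2K1, the ERK activator MEK1, 1.59-fold higher. MAP2K6, another activator of p38, went from 2.62 ± 0.251 to 0.557 ± 0.107 FPKM (4.34-fold lower), and RPS6KA3, the ERK-activated kinase RSK2, was 2.00-fold lower. Those that did not pass were MAP2K4, MAP2K5, MAPK10, MAPK13 and MAPK14 (adjusted p = 0.104 to 0.608). With library totals MAP2K5 and MAPK14 were called lower (log2 -0.25 and -0.16, adjusted p = 0.00682 and 0.029), as with both limma fits; 9 genes of the list were then lower and 7 or 8 higher. RPS6KA2, included in the 10 that rose, passed the count filter through the treated libraries alone and so had to differ.

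Among factors known to act on the FOS and JUN promoters, 11 of 12 were tested, of which 7 rose, 1 fell and 3 did not pass (median log2 0.31). The call of MRTFB as higher was lost in edgeR with library totals (log2 0.14, adjusted p = 0.0527) and with both limma fits, which left 6. MEF2D rose from 15.8 ± 0.715 to 39.3 ± 1.11 FPKM (2.67-fold), and the serum response factor gene SRF from 7.98 ± 0.163 to 15.7 ± 1.05 FPKM (2.11-fold). ELK3, a partner of serum response factor, was 1.75-fold higher. MRTFA, an actin-regulated coactivator of serum response factor, was the gene that fell (2.27-fold). CREB1, ELK4 and ATF1 had log2 changes of 0.12, 0.09 and 0.09 and did not pass (adjusted p = 0.114, 0.224 and 0.240).

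Of 8 genes whose proteins bind AU-rich elements, 5 were lower, 2 higher and 1 did not pass (median log2 -0.30). The shares over all tested genes were 35.4% lower and 34.7% higher. HNRNPD, which encodes the decay factor AUF1, went from 39.6 ± 0.325 to 10.4 ± 0.220 FPKM, 3.55-fold lower, and TIA1, a translational silencer, was 2.05-fold lower. TIAL1 was 1.26-fold lower, and ZFP36L2 and KHSRP fell by 0.44 and 0.26 on the log2 scale. The decay factor genes ZFP36L1 (46.1 ± 1.45 to 80.3 ± 3.22 FPKM, 1.87-fold) and ZFP36 (log2 0.46) rose. ELAVL1, the gene of the stabiliser HuR, did not pass (log2 0.02, adjusted p = 0.805). Of 4 genes for turnover of AP-1 proteins, the ubiquitin ligase gene FBXW7 was 2.21-fold higher and COP1 1.36-fold lower, while ITCH and DET1 did not pass (adjusted p = 0.187 and 0.546); the median log2 was -0.04.

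Known AP-1 target genes were tested in 14 of 22 cases, of which 13 rose, none fell and 1 did not pass (median log2 1.08). A call higher was made for 34.7% of all tested genes. The TGFB1 call was lost in edgeR with library totals (log2 0.10, adjusted p = 0.0903) and with both limma fits, which left 12 called higher. HBEGF, an EGF receptor ligand, rose from 1.16 ± 0.179 to 10.2 ± 0.553 FPKM (9.47-fold), and CXCL8, the gene of interleukin-8, from 0.997 ± 0.186 to 18.9 ± 1.76 FPKM (20.8-fold). The receptor kinase gene AXL was 2.28-fold higher. F3, the gene of tissue factor, had log2 0.35 and did not pass (adjusted p = 0.214). These genes answer to other factors too, and the list was chosen with earlier results of these data known.

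The other 8 targets were too low to test: MMP1, MMP3, MMP9, MMP10, MMP13, IL6, IVL and SPRR1B. The collagenase gene MMP1 had summed counts of 2 (DMSO) and 30 (treated), which relative to library totals is 16.1 times more, exact 95% interval 4.08 to 138.8. The stromelysin gene MMP10 had 2 and 52 counts, 27.9 times more with an interval of 7.34 to 236.2. Both intervals cover counting error only. The others differed less: MMP3 had 8 and 5 counts, MMP9 3 and 6, MMP13 1 and 1, and IL6 6 and 9. IVL and SPRR1B, targets in squamous epithelium, had no counts in any library.

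**Figure D5:**
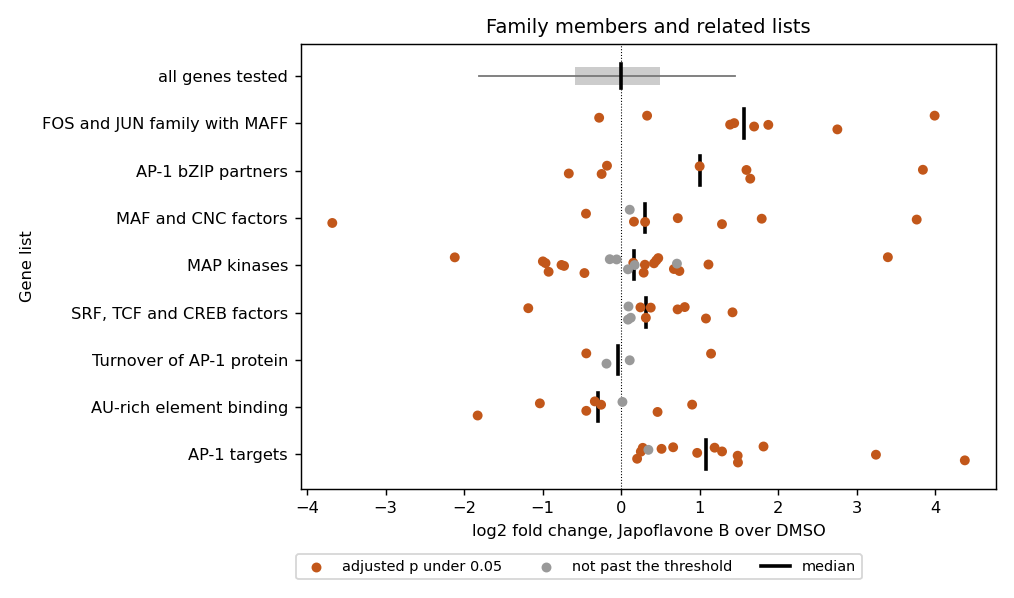
Log2 fold change of the 8 members and of the tested genes of each related list (points; black bars are medians), with all 16082 tested genes on top as a box from percentile 25 to 75 and a line from 5 to 95. Members lie mostly above 1 (median 1.57, or 1.44 without FOSB, which had to differ) and AP-1 targets all above 0 (median 1.08). AU-rich element binding genes lie mostly below 0.

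The genes with profiles nearest to each member were sought among 7511 or 7512 genes that reached 5 FPKM in either group's mean, by root mean square distance of log2 CPM over the 6 libraries, set to the DMSO mean. FOSB was nearest to ATF3, at a distance of 0.23, and to TSC22D3, a glucocorticoid-induced gene, at 0.24. FOSL1 was nearest to TNFRSF10D, a decoy receptor gene (0.07), and to TGFA, an EGF receptor ligand gene (0.09). For FOS the nearest were TMEM79 and LENG1 (0.13 and 0.14), and for JUN they were LARP6 and ZBTB17 (0.06 each). JUNB was nearest to RHOG and MAP3K10 (0.06 each), MAFF to RNF24 and RWDD2B (0.07 and 0.09), FOSL2 to GGCX and FHIP2A (0.02 each) and JUND to SNHG19 and CNFN (0.07 each). The 2 genes nearest to JUND shared the low value in DMSO replicate 1, which the choice by distance over the same libraries favours. SNHG19 ran from 26.4 to 39.7 FPKM and CNFN from 5.80 to 8.96 FPKM over the DMSO libraries. The call of SNHG19 as lower was lost in 4 alternatives, and CNFN did not pass (edgeR adjusted p = 0.146).

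Genes next to the members moved in both directions or did not pass. CCDC85B, whose end lies 414 bases from FOSL1, was at 21.7 ± 4.38 and 31.1 ± 1.24 FPKM (log2 0.63), far under the FOSL1 change of 2.75, and C11orf68, 16237 bases away, had log2 0.66. ERCC1, PLA2G6 and FOSL2-AS1, whose spans overlap FOSB, MAFF and FOSL2 without shared exonic bases, had log2 changes of 0.15, -0.61 and 0.29, the last not past the threshold (adjusted p = 0.661); the ERCC1 call was lost in 11 of 16 alternatives. TMEM184B, 2784 bases from MAFF, was at log2 0.67 and BAIAP2L2, on its other side, at -1.10. JUND lay between IQCN (log2 0.80) and LSM4 (0.17), calls lost in 3 and 5 alternatives. JUN, far from its neighbours, had MYSM1 at 0.09 (adjusted p = 0.393) and FGGY at -0.73. Beside JUNB, GET3 and RNASEH2A had -0.07 and -0.23 (adjusted p = 0.417 and 0.176). FOS stood next to ENSG00000273565 (0.72, adjusted p = 0.142) and JDP2-AS1 (-2.66), which passed the count filter through the DMSO libraries alone. Beside FOSB were POLR1G (-0.15, adjusted p = 0.296) and RTN2 (-0.38, a call lost in 3 alternatives), and beside FOSL2 were BABAM2 (-0.89) and PPP1CB-DT (0.19, adjusted p = 0.598).

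Library depth was 15298531 to 21744407 counts. Log2 CPM correlated at 0.990 to 0.992 within groups and 0.926 to 0.931 between them, as Pearson's r across genes, which are not independent replicates. Mitochondrial genes took 3.97% to 4.70% of counts after DMSO and 8.33% to 8.58% after Japoflavone B, and the part of this in the values above was not tested. Of 8 markers of A549 and epithelium 7 were at 1 FPKM or more, but their summed level was 5235 to 5539 FPKM after DMSO and 1478 to 1527 after Japoflavone B; its part in the results was not tested. The 4 alveolar type II markers SFTPA1, SFTPB, SFTPC and NKX2-1 summed to at most 0.08 FPKM in any library. Most markers of other cells were near 0, apart from CD14 and COL1A1. The 4 endothelial markers summed to at most 0.07 FPKM, with VWF and KDR at 0 counts. Of 4 immune markers CD14 alone reached 1 FPKM (2.53 and 0.313) and CD3E was at 0 counts, and of 4 fibroblast markers COL1A1 alone did (4.64 and 0.473).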

How the data were processed

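A549 mRNA was isolated by its poly(A) tail on beads and sequenced after random priming, per the labels' protocols. Per the submitters' processing notes, cutadapt 1.9.1, HISAT2 2.0.1, HTSeq 0.6.1, DESeq2 and the build GRCh38 were used; the role of each tool, the annotation release and the strand setting are not given in the sources used here. The deposited table holds whole-number counts per gene made by the authors for each library. The authors also deposited FPKM, which counts, exonic gene size and column totals gave again to within 0.005. The treated columns carry a code, LE-532, and their label is Japoflavone B.

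Counts were filtered with filterByExpr (minimum count 10, minimum total 15), which left 16082 genes, scaled by trimmed means (factors 1.03 to 1.04 for DMSO, 0.957 to 0.970 for Japoflavone B) and fitted with edgeR 4.0.16 in R 4.3.3, quasi-likelihood, p-values being adjusted by Benjamini-Hochberg across the 16082 genes and called under 0.05. Ratios and shares were taken from FPKM per library. As alternatives the analysis was run unfiltered, with genes of mean FPKM 1 or more, with DESeq2 size factors, upper-quartile factors, library totals, DESeq2 1.42.0, robust estimation, limma 3.58.1 on log2 of FPKM + 1 or + 0.1, the replicate number as a block, counts in place of FPKM for ratios and shares, and each library left out in turn.

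The members and lists were chosen with earlier results of these data known. The text names all members, per list the 4 genes of lowest adjusted p that reach 1 FPKM, and every gene of a count of 5 or fewer. It also names the 2 nearest profiles per member among genes with a symbol, and overlapping or nearest tested genes. MMP1, MMP10, MAFA, RPS6KA2, NFE2L2, MAF, MRTFB, TGFB1, the other low targets' counts and marker genes were named beyond this rule, after their values were seen. One gene that the rule names is not reported here. Promoters are from RefSeq, and UTRs are those of 1 protein-coding transcript per gene in GENCODE 29. On simulated data with 16082 genes for this comparison, 88 of 100 genes changed 1.5-fold and 100 of 100 changed 2-fold were recovered, with 9 false calls. The changed genes were few, went in either direction and lay above a minimum mean count. These figures therefore do not carry over to low genes such as FOSB, or to data in which most genes are called. The labels mention no molecular identifiers, so counting intervals cover counting error only.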

Additional observations from a re-analysis of the deposited data

How the results depend on the processing

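The calls of FOS, FOSL1, FOSL2, JUN, JUNB and MAFF kept direction and side of the threshold under every alternative that tested them; FOSB, which had to differ, was positive wherever tested and had no value with a mean of at least 1 FPKM, which removed it. JUND was lost with DESeq2 (log2 -0.28), and leaving out single libraries gave -0.42 to -0.19; the count of members called lower was 0 with DESeq2 and 0 to 1 over libraries left out. AP-1 bZIP partners called lower numbered 1 to 3 over libraries left out (1 without Japoflavone B replicate 1), and MAF and cap'n'collar genes called lower 1 with a mean of at least 1 FPKM, which removes BACH2. The MAFF to MAFK difference ran from -0.11 to 0.23 over libraries left out, negative without DMSO replicate 2. The causes of the other shifts were not tested.

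Shares of counts, which are not per length, differ from shares of FPKM by construction. FOSL1 then took 4.57% and 19.8% and FOSL2 93.5% and 75.1% of the FOS genes in DMSO and treated libraries; JUN took 14.5% and 21.6%, JUNB 55.2% and 66.9% and JUND 11.6% (treated) of the JUN genes, which held 51.5% and 59.5% of the 7 genes.

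Values of genes that did not pass changed sign in these settings. With library totals, limma on FPKM + 1 and limma on FPKM + 0.1, in that order, ELAVL1 was at -0.0862, -0.0816 and -0.0856, ELK4 at -0.0152, -0.0106 and -0.0117, MAP2K4 at -0.0157, -0.015 and -0.016, ATF1 at -0.0093, -0.0088 and -0.0093 and MYSM1 at -0.0125, -0.0024 and -0.0014. MAPK10 was at -0.0046 and -0.0356 with the limma fits, and ITCH at -0.0002 and FOSL2-AS1 at -0.0105 with FPKM + 0.1. ELAVL1 was at -0.0109 with a mean of at least 1 FPKM and ran from -0.0045 to 0.0557 over libraries left out (-0.0045 and -0.0031 without DMSO replicates 1 and 2). Over libraries left out FOSL2-AS1 ran from -0.5304 (without Japoflavone B replicate 3) to 0.834, with -0.0912 without DMSO replicate 1, and PPP1CB-DT from -0.047 (without Japoflavone B replicate 1) to 0.4604. Among named genes other than the members, 34 values lost a call and 19 gained one, with MAF, MAFA, RPS6KA2, MRTFB and TGFB1 not included.

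No pairing by replicate number was seen: same-numbered libraries' deviations from their group means correlated at 0.013, -0.004 and -0.045 across genes for numbers 1, 2 and 3. With the replicate block 5502 genes were higher and 5618 lower, against 5577 and 5686. Of the members 7 were higher, a count that includes FOSB, which had to differ. The 1 member called lower was JUND, at log2 -0.27 (edgeR adjusted p = 0.00791). Depth limits FOSB most, with 3 to 10 counts per DMSO library.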
